A study of Mus musculus with 6 samples.

Results

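The genes described here are 8 genes best known from mast cells and basophils, measured in mouse group 2 innate lymphoid cells (ILC2s), lymphocytes that lack an antigen receptor and secrete type 2 cytokines in tissues. They are Mcpt8, Kit, Cpa3, Ms4a2, Fcer1a, Fcer1g, Gata2 and Hdc, and all 8 have a row among the 27179 genes of the count table. The members were selected on gene symbol, with their counts in these same 6 libraries already known, so their levels and their difference between the groups are given as a description and support nothing by themselves. RNA was sequenced from ILC2s sorted through a Chat negative gate (3 samples) or a Chat positive gate (3 samples), Chat being the gene of the acetylcholine-making enzyme choline acetyltransferase. Each gate has samples numbered 1, 2 and 3. The sources used here do not give the tissue, the strain, age and sex of the mice, any stimulus, or how the sorter read Chat. The labels do not tie the samples of a gate to separate animals or cultures. The p-values therefore reflect the spread among these samples alone, and that spread may be technical.

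Mast cells and basophils are granulocytes armed with IgE. Their high-affinity IgE receptor is built from an IgE-binding alpha chain (Fcer1a), a signal-amplifying beta chain (Ms4a2) and a gamma chain (Fcer1g) that carries the signalling motif and also serves other receptors. On activation these cells release histamine, made by histidine decarboxylase (Hdc), and granule proteases such as carboxypeptidase A3 (Cpa3) and, in mouse basophils, the serine protease encoded by Mcpt8. KIT, the receptor for stem cell factor, sustains mast cells and is also carried by haematopoietic and innate lymphoid progenitors, and GATA2 is a transcription factor that mast cells and basophils need. GATA3, a relative of GATA2 that recognises the same DNA motif, specifies ILC2s.

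Between 37154269 and 50361306 counts were deposited per library. Chat checked the gates, with 16.5, 26.6 and 17.1 CPM (the count scaled to the same total in every library) in Chat negative 1, 2 and 3 and at 188, 172 and 204 CPM in Chat positive 1, 2 and 3. Of 12 genes listed as ILC2 markers, all passed the filter on low counts, and Il5, Il2ra, Icos and Gata3 averaged 9089, 4535, 2338 and 2200 CPM (mean of 6 libraries). The 12 markers summed to 18100 to 20000 CPM in Chat negative and 20000 to 25800 in Chat positive libraries. Il5 weighs most in that sum, at a mean of 6957 CPM in the Chat negative and 11220 in the Chat positive gate. Of the 12, 7 were higher and 5 lower in Chat positive, with a median log2 difference of 0.06. The libraries of number 2 stood apart from the other 4 in both gates: the first principal component held 52.8% of the variance of log2 CPM, with number 2 at 52.4 and 46.6 and the other 4 between -33.9 and -16.2. A low count in the table is not always a low transcript level, since the ribosomal protein gene Rpl13 had 37 to 74 counts beside 29123 to 37066 for Rpl4.

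The data divided the 8 genes into 4 that were measured well and 4 that were at or near 0. Mcpt8, Kit, Fcer1g and Hdc passed the filter on low counts (edgeR's filterByExpr), which kept 12967 genes in all. Cpa3 and Ms4a2 had 0 counts in all 6 libraries, Fcer1a reached 2 counts at most, and Gata2 had 1 to 14. Of the 3 IgE receptor chains, only the shared gamma chain was therefore measurable. By counting error alone, a gene listed at 0 could have had up to 3 counts, a one-sided limit, which is 0.0807 CPM in the library with the fewest reads. The two-sided exact 95% interval reaches 0.0993 CPM there.

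**Figure D1:**
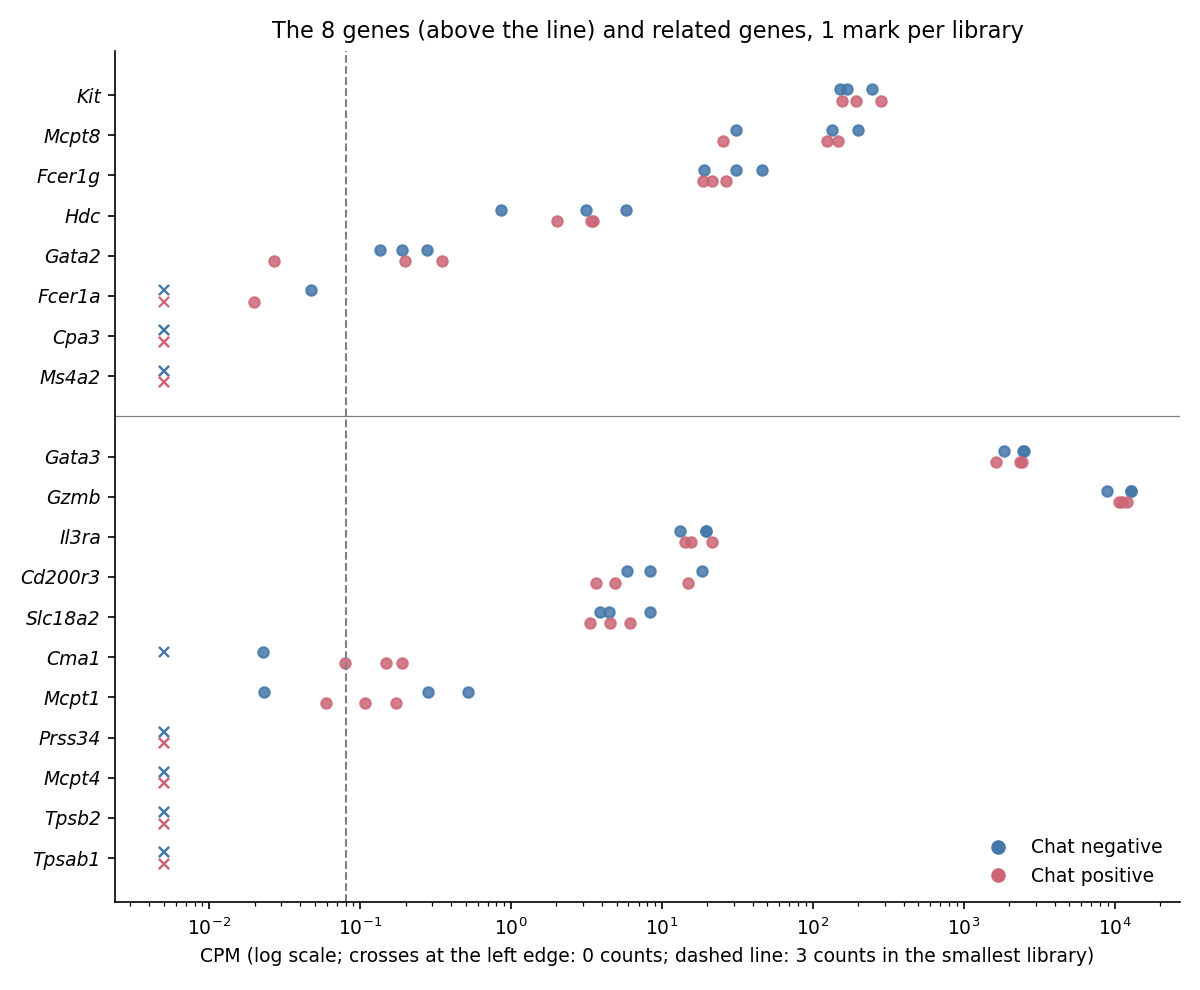
Level of the 8 genes (above the horizontal line) and of related genes, as CPM on a log axis with 1 mark per library, coloured by gate. Kit and Mcpt8 lie above 20 CPM in every library, while all libraries of Cpa3 and Ms4a2 are crosses at the left edge (0 counts), as are those of the basophil protease Prss34 and the mast cell proteases Mcpt4, Tpsb2 and Tpsab1.

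Mcpt8 (Entrez 17231, GRCm38 chromosome 14, 56082163 to 56085499) stood at 133, 31.0 and 199 CPM for Chat negative 1, 2 and 3, against 123, 25.5 and 147 CPM for Chat positive 1, 2 and 3. The gates overlapped throughout, and the lowest library of each was number 2. In counts this was 1337 reads in Chat negative 2 and 8760 in Chat negative 3, so counting error is small beside the spread (exact 95% binomial interval of 29.4 to 32.7 CPM for the first and 195 to 203 for the second, for counting error only).

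Mcpt8 lies within a cluster of serine protease genes that also holds the mast cell chymases and the granzymes. It was the only mast cell or basophil protease of that cluster with more than 23 counts in any library. Its neighbours Mcpt4 and Mcpt9 had 0 counts, Mcpt2 at most 2, Ctsg at most 8 and Mcpt1 1 to 23. Of the 7 granzymes listed in the cluster, Gzmb, a cytotoxic protease, averaged 11430 CPM and Gzmc 8.78 CPM, while Gzmg had 0 counts. Gzmb and Gzmc were tested, and both log2 differences lay below 0, with a median of -0.33. Per kilobase of the longest annotated transcript, Gzmb stood 68.4-fold above Mcpt8.

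Because Gzmb reads were so numerous, the similarity of the 2 genes was measured. The coding sequences of Mcpt8 and Gzmb, 741 bases each, were identical at 66.6% of 718 aligned bases. Their longest identical stretch was 15 bases, and it is shown because a read that matches both coding sequences exactly can be no longer than this. It is read from the GENCODE transcript on the minus strand at chr14:56083362-56083376 (GRCm38), in an Mcpt8 coding exon, with all bases shared and so in capitals.

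Mcpt8 and Gzmb: CAATGACATCATGCT

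None of the 998 distinct 30-base stretches of the annotated Mcpt8 transcripts occurred in a transcript of another gene on either strand, and the same held for Kit, Fcer1g, Gata2 and Fcer1a. Of the 6362 such stretches of Hdc, 33 occurred elsewhere (0.519%). No exon of a member overlapped an exon of another annotated gene. Per 100 Gzmb reads there were 1.04, 0.347 and 1.54 Mcpt8 reads in Chat negative 1, 2 and 3. In Chat positive 1, 2 and 3 there were 1.02, 0.239 and 1.33. Whether any Gzmb reads were counted as Mcpt8 was not tested. The sources used here give neither the read length nor how multiply mapped reads were treated.

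Kit (Entrez 16590, chromosome 5) stood at 168, 248 and 150.2 CPM for Chat negative 1, 2 and 3, against 193, 282 and 157 CPM for Chat positive 1, 2 and 3. Here the number 2 library was the highest of each gate, and the gates overlapped. Kitl, which encodes the KIT ligand stem cell factor, was low but above the floor, at 2.61, 7.61 and 4.02 CPM for Chat negative 1, 2 and 3, against 2.72, 12.3 and 6.70 CPM for Chat positive 1, 2 and 3. It too was highest in the number 2 library of each gate, and it is named after its values were seen.

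Fcer1g (Entrez 14127, chromosome 1) stood at 45.9, 19.1 and 30.9 CPM for Chat negative 1, 2 and 3, against 26.7, 18.7 and 21.5 CPM for Chat positive 1, 2 and 3. Chat negative 1 and Chat negative 3 lay above all Chat positive libraries, and Chat negative 2 lay among them. Of the IgG receptors that pair with the gamma chain, 3 were listed, all with low counts: Fcgr3, which encodes the low-affinity IgG receptor of many myeloid and NK cells, had 7 to 46 counts, Fcgr4 at most 4 and Fcgr1 at most 1. Of 8 Fc receptor genes 3 were tested, Fcer1g among them, all with a log2 difference between the gates below 0. Their median of -0.54 is the value of Fcer1g itself, so it says nothing further about the family. Cd247, the zeta chain that can replace the gamma chain in NK receptors, stood at 8.06 ± 1.94 CPM in the Chat negative gate against 10.4 ± 1.34 CPM (SD, n = 3 each). Per kilobase, Fcer1g averaged 12.7-fold above Cd247.

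Hdc (Entrez 15186, chromosome 2) was low, at 3.15, 0.859 and 5.81 CPM for Chat negative 1, 2 and 3, against 3.39, 2.03 and 3.50 CPM for Chat positive 1, 2 and 3. The number 2 library was again the lowest of each gate, with 37 counts in Chat negative 2. Slc18a2, the vesicular transporter that loads histamine and other monoamines, averaged 5.56 ± 2.44 CPM behind the Chat negative gate and 4.67 ± 1.39 behind the positive (SD, n = 3 each). Hnmt, the enzyme that methylates histamine, had 0 counts, as did the receptors Hrh1 and Hrh3 and the organic cation transporter Slc22a3. The histamine receptor Hrh2 had the highest CPM of the 9 genes of histamine handling, not scaled by length, at 17.7 ± 2.08 and 16.6 ± 2.37 CPM (SD, n = 3 each).

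Gata2 (Entrez 14461, chromosome 6) had 8, 12 and 6 counts in Chat negative 1, 2 and 3 and 1, 10 and 14 in Chat positive 1, 2 and 3. In CPM it ranged from 0.0269 to 0.348, and the Chat positive libraries spanned the whole range. Gata3 averaged 2200 CPM, 12500-fold above Gata2 per kilobase, and Gata1, the erythroid and mast cell relative, 0.558 CPM. Among the other 11 listed transcription factors, Runx1 averaged 35.0 CPM, the basic leucine zipper factor Cebpb 13.1 and the GATA cofactor Zfpm1 2.56. The mast cell factor gene Mitf had 50 to 109 counts and was tested, and Lmo2, whose product binds those of Tal1 and Lyl1, had 6 to 40. Erg, Gfi1b, Tal1 and Lyl1, which act in stem cells and early blood lineages, never exceeded 4 counts, Cebpa 6 and Spi1 12.

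Fcer1a (Entrez 14125, chromosome 1) had 2 counts in Chat negative 1, 1 in Chat positive 2 and 0 in the other 4 libraries, so no ratio between the gates is given. Cpa3 (Entrez 12873, chromosome 3) and Ms4a2 (Entrez 14126, chromosome 19) are listed at 0. GATA factors bind control regions of mast cell genes, and Gata3 was abundant. The 250 bases before each listed transcription start of the 8 genes were therefore searched for the GATA motif on both strands. It was searched in 4 forms (AGATAA or its variant AGATAG, and likewise TGATAA or its variant TGATAG). No other motif was searched, and all 8 genes have an entry in the RefSeq promoter table of GRCm38.p6, with 10 windows in all. A match occurred in 4 of the 10 windows, those of Cpa3, Ms4a2, Fcer1a and Hdc. Of 32851 windows in the table, 26.5% held a match, and 1.3% held 3 or more, as did the Ms4a2 window, which had the most of the 10. The 4 windows with a match are shown 5′ to 3′, with the matches in capitals, because 3 of them belong to genes at 0 or nearly 0 counts. A match is a run of letters and not a bound site.

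Cpa3: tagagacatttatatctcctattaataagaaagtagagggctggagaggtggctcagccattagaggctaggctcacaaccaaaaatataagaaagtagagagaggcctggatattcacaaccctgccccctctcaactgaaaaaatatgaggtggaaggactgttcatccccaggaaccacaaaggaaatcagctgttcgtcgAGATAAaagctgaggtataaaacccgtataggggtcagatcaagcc
Ms4a2: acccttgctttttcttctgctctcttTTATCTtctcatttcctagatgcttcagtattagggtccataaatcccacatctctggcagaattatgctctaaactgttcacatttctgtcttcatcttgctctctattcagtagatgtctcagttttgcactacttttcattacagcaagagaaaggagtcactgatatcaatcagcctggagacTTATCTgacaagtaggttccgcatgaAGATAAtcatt
Fcer1a: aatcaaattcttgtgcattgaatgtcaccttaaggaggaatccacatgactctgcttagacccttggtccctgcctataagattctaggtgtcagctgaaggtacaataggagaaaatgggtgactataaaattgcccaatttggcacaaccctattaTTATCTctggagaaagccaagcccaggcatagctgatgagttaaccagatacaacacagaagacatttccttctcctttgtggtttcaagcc
Hdc: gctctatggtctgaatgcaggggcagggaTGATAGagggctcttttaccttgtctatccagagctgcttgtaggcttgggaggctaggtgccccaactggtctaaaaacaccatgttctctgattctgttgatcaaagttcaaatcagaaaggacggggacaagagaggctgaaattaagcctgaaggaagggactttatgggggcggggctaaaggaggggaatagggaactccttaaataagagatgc

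The windows of Mcpt8, Kit, Fcer1g and Gata2 held no match, which says only that these letters are not in those bases. Annotated exons covered 76 bases of the Mcpt8 window, 71 and 75 of the Kit windows and 16 of the Fcer1g window. They covered 0 and 250 bases of the Gata2 windows, and none of the windows with a match. Both the Mcpt8 and the Hdc window lay inside the annotated span of the gene, as did a Gata2 window. The Ms4a2 window lay partly inside, since that gene's span ends at 11623790, and its match at -11 fell within the span. The Cpa3 and Fcer1a windows overlapped their genes by fewer bases, with spans ending at 20242209 and 173227232. All 4 printed windows lie on the minus strand: Cpa3 at chr3:20242182-20242431, Ms4a2 at chr19:11623720-11623969, Fcer1a at chr1:173227230-173227479 and Hdc at chr2:126618679-126618928.

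Levels of different genes can be ordered only per length. Per kilobase of the longest annotated transcript, Mcpt8 averaged 116 CPM, Fcer1g 39.7, Kit 38.1, Hdc 0.691 and Gata2 0.0549. Fcer1g and Kit did not differ beyond their spread over libraries, at 27.4 to 67.2 and 28.7 to 53.9 CPM per kilobase. The order was not the same in all libraries. In the 4 libraries of numbers 1 and 3, Mcpt8 stood highest, at 131 to 210.4 CPM per kilobase, but in Chat negative 2 and Chat positive 2 it stood at 32.8 and 26.9, below Kit at 47.4 and 53.9.

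For all 4 measured genes the number 2 libraries of both gates lay at one end, while the gates overlapped. Mcpt8 ran from high to low through Chat negative 3, Chat positive 3, Chat negative 1, Chat positive 1, Chat negative 2 and Chat positive 2, and Kit ran through the 6 libraries in exactly the reverse order. The reverse order of Mcpt8 was found for 1.66% of all genes tested. Hdc shared with Mcpt8 its highest library, Chat negative 3, and having the number 2 libraries at the bottom. Fcer1g was also lowest in the number 2 libraries, but its highest library was Chat negative 1. With libraries in 2 clusters, no correlation between members is given.

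**Figure D2:**
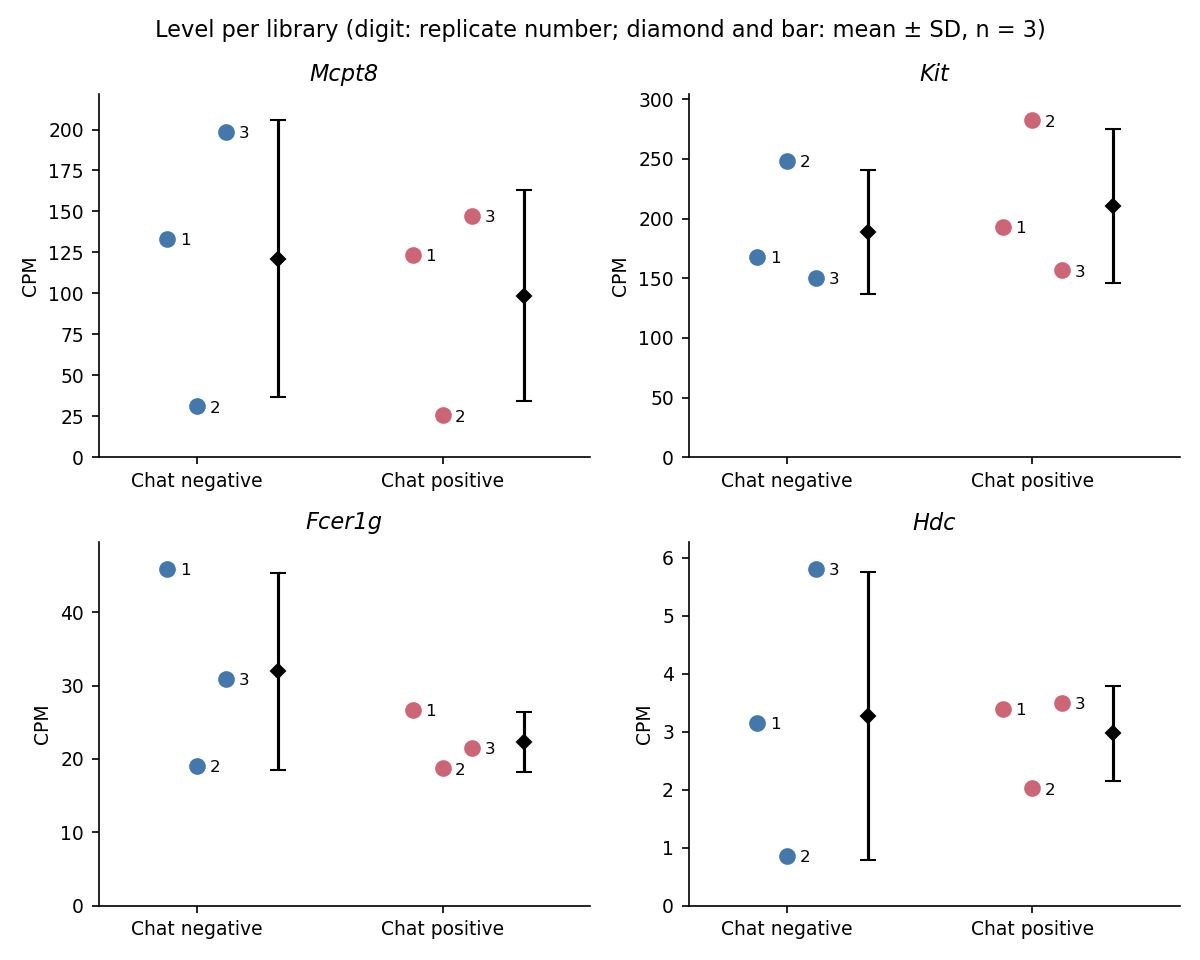
CPM of Mcpt8, Kit, Fcer1g and Hdc in each library (points, with the replicate number beside each) and the mean ± SD of each gate (diamond and bar, n = 3). The number 2 libraries are the lowest points for Mcpt8, Fcer1g and Hdc and the highest for Kit, in both gates.

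On the log2 CPM scale, the mean of the number 2 libraries differed from that of the other 4 by -2.43 for Mcpt8 (5.38-fold lower), -1.54 for Hdc (2.90-fold lower), -0.70 for Fcer1g (1.62-fold lower) and 0.64 for Kit (1.56-fold higher). All 4 members had both number 2 libraries outside the range of the other 4, as did 50.1% of all genes tested, so this count says little about the members. A difference of at least 2-fold was less common, at 10.6% of genes, and Mcpt8 and Hdc were among them. Mcpt8 ranked 84 of 12967 from the lowest, and Fcer1g and Kit lay nearer the bulk. The labels do not say what the numbers mark, and this split was noticed in the data, so it is given with no test.

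**Figure D3:**
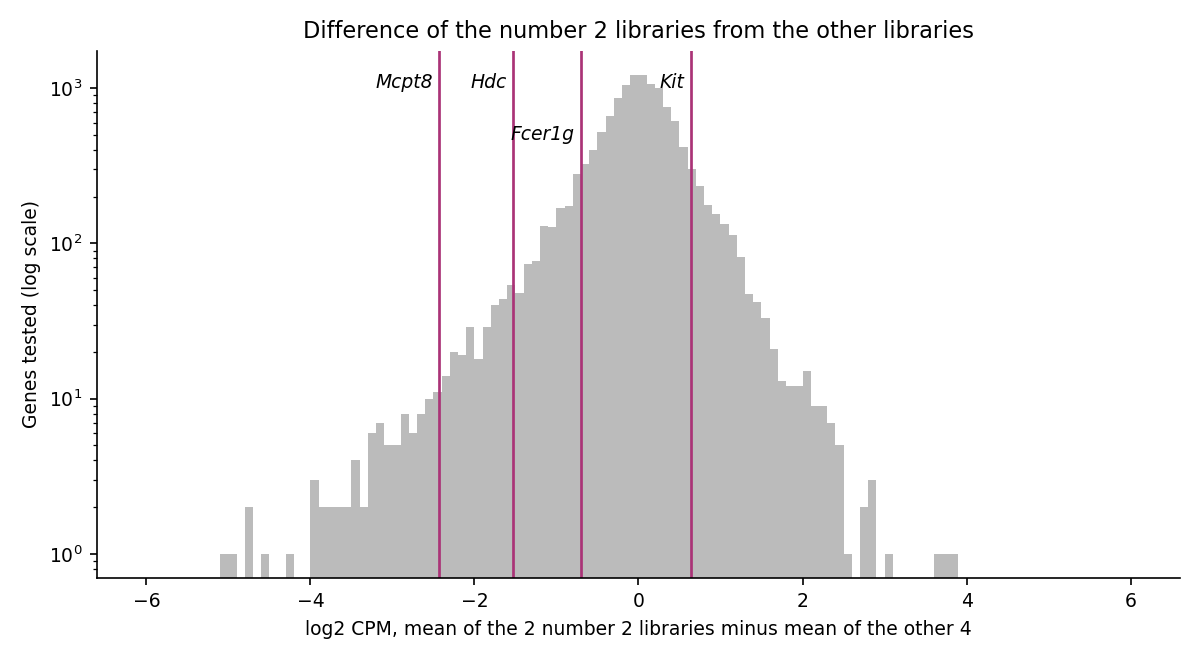
Histogram over the 12967 genes tested of the difference between the 2 number 2 libraries and the other 4, in log2 CPM, with a log axis for the number of genes and lines at the 4 tested members. Mcpt8 (-2.43) and Hdc (-1.54) lie in the lower tail, and Fcer1g (-0.70) and Kit (0.64) nearer the centre.

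Some genes of other kinds followed the same split. Both number 2 libraries lay outside the range of the other 4 for 50.1% of all genes tested. The summed level of 6 cell cycle genes (Mki67, Top2a, Cdc20, Birc5, Ndc80 and Ccnb1) was 1450 and 1460 CPM in the number 2 libraries and 563 to 720 CPM in the other 4. That of 5 interferon response genes (Irgm1, Isg20, Oas1a, Irf7 and Ifit3) was 169 and 162 CPM against 355 to 437 CPM. Irgm1 made up the largest part, with a mean of 184 CPM over all libraries, and Ifit3 had at most 13 counts. Both lists were chosen after their values were seen, and their part in the pattern of Mcpt8, Kit and Hdc was not tested.

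By the naming rule, the 2 genes with the highest Pearson correlation of log2 CPM to each member over the 6 libraries were named, with no test, among genes with a mean of at least 5 CPM. For Mcpt8 these were Irgm1, an interferon-induced GTPase (0.999), and the Notch ligand Jag2 (0.998). For Kit they were Snf8, a subunit of the endosomal sorting complex (1.00), and the DNA helicase Pif1 (0.998). Fcer1g was closest to Creb3l2 (0.997) and Rhbdf2 (0.996), a transcription factor and a regulator of ADAM17, and Hdc to Itprid2 (0.994) and Poglut1 (0.99). Coefficients near these were frequent for some members: over the 9425 or 9426 genes compared, the 99th percentile was 0.986 for Mcpt8, 0.985 for Kit, 0.944 for Hdc and 0.911 for Fcer1g. Without the number 2 libraries, the coefficients were 0.99 and 0.98 for Mcpt8, 1.00 and 0.99 for Kit, 1.00 and 1.00 for Fcer1g and 0.97 and 0.93 for Hdc, over 4 libraries. As the genes had been picked on all 6 libraries, these 4 among them, high values follow from the choice and are no separate check.

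Between the gates, no member passed the test, and the gates overlapped for all 4 tested members. In edgeR's quasi-likelihood fit across all genes, 0 of 4 members had an adjusted p under 5%, and each had an adjusted p of 1.00. That fit called 0.00771% of the 12967 genes, which is 1 gene, Chat. At an unadjusted p under 0.05 it held 315 genes and none of the members. The gates did not overlap for 8.32% of all genes tested.

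The log2 difference, Chat positive minus Chat negative, was -0.54 (SE 0.32) for Fcer1g, at 31.95 ± 13.5 and 22.3 ± 4.06 CPM, and -0.31 (SE 0.79) for Mcpt8, at 121 ± 84.6 and 98.7 ± 64.5 CPM. It was -0.16 (SE 0.63) for Hdc, at 3.27 ± 2.48 and 2.97 ± 0.822 CPM, and 0.14 (SE 0.26) for Kit, at 188.9 ± 52.3 and 210.7 ± 64.7 CPM (SD, n = 3 each). For Mcpt8 the range of 2 SE on either side ran from -1.89 to 1.26, which leaves room for large differences either way. For Kit it ran from -0.37 to 0.65. Without both number 2 libraries the log2 differences were -0.69 for Fcer1g, -0.31 for Mcpt8, -0.40 for Hdc and 0.12 for Kit.

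The direction was also read within each number. Mcpt8 and Fcer1g were lower in the Chat positive library for 3 of 3 numbers, as were 15.1% of all genes tested, and Kit was higher for 3 of 3, as were 25.5%. Hdc was higher for 2 of 3. When the fit held the replicate number as a block, the log2 differences were -0.29 (SE 0.08) for Mcpt8, -0.46 (SE 0.14) for Fcer1g, 0.13 (SE 0.06) for Kit and 0.12 (SE 0.36) for Hdc. In that fit edgeR called 0 of the 4 members, with adjusted p = 0.124, 0.169, 0.296 and 0.90 in that order, beside 0.339% of all genes (44 genes). In bulk samples, fewer cells of a type and less RNA per cell cannot be told apart.

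**Figure D4:**
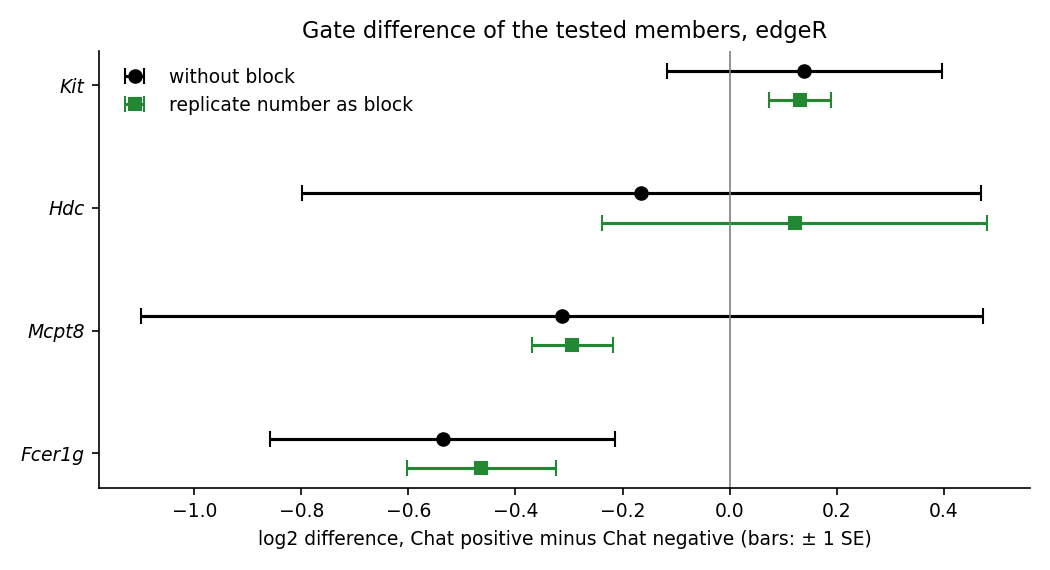
Log2 difference of the 4 tested members between the gates (Chat positive minus Chat negative, ± 1 SE) in edgeR, without a block (circles) and with the replicate number as a block (squares). The SE of Mcpt8 falls from 0.79 to 0.08 with the block, and Hdc lies on opposite sides of 0 in the 2 fits.

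The other genes of these pathways were counted the same way, and none passed without the block. Of 18 listed signal proteins downstream of the IgE receptor, all were tested, with 3 log2 differences above 0, 15 below 0 and a median of -0.09, beside a median of 0.00 over all genes. Most of this machinery is shared with lymphocytes: the kinase subunit Pik3cd averaged 869 CPM, the adaptor Lcp2 591, the inositol phosphatase Inpp5d 546 and the exchange factor Vav1 401. Of 10 genes for KIT, its ligand and its signal proteins, 2 lay above 0 and 8 below, with a median of -0.14. The highest CPM among them, not scaled by length, were those of the adaptor Grb2, at 324 CPM, Kit itself, the PI3 kinase subunit Pik3r1 at 192 CPM and the adaptor Gab2 at 59.95.

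Among 9 signalling adaptors, the gamma chain and its relatives, 8 were tested, 4 of them above 0 and 4 below, with a median of -0.00. Cd79b, known from the B cell receptor, averaged 75.1 CPM while its partner Cd79a had at most 6 counts, and Hcst (DAP10) averaged 49.5 CPM. Cd3g, of the T cell receptor complex, averaged 28.7 CPM. Of 7 genes for granule proteoglycan, the core protein gene Srgn averaged 1564 CPM, and Ext2, Ndst1 and Ndst2, which build and sulphate heparan chains, 155, 81.4 and 41.1 CPM, with a median log2 difference of -0.02 over the list. Of the 4 tested genes of histamine handling, 1 lay above 0 and 3 below, with a median of -0.14. For the 6 tested transcription factors the counts were 1 and 5, with a median of -0.31.

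The 11 surface markers of mast cells and basophils had 8 tested members, 4 above 0 and 4 below, with a median log2 difference of 0.02. Their members with the highest CPM, not scaled by length, the IL-33 receptor Il1rl1 (105 CPM), the integrin Itga2 (73.3), the beta receptor chain Csf2rb (20.01) and the IL-3 receptor chain Il3ra (17.3), are not particular to those cells. With the block, edgeR called 1 of the 8, Il1rl1, which ILC2s carry, with a log2 difference of 0.55 and adjusted p = 0.0419, beside 0.339% of all genes. That gene is also among the 12 listed ILC2 markers, of which the blocked fit called 2. Il1rl1 was not called without the block, and the pairing that the block uses was read from these same data. Mrgprb1 and Mrgprb2, receptors of connective tissue mast cells, had 0 counts.

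Mast cells and basophils could in principle be carried over in a sort, so their defining genes were read beside the members. Of 7 mast cell markers, 5 had 0 counts in all libraries (Mcpt4, Tpsb2, Tpsab1, Mrgprb1 and Mrgprb2). Cma1, a chymase, had 0, 0 and 1 counts in Chat negative and 7, 4 and 6 in Chat positive libraries, and Slc18a2 made up nearly all of the list's sum, from 3.87 to 8.37 CPM for the Chat negative gate and from 3.44 to 6.28 for the other. Of 6 basophil markers, Prss34 and Ms4a2 had 0 counts and Fcer1a at most 2. Their sum was 62.6 to 227 CPM in Chat negative and 54.6 to 168 in Chat positive libraries, and it came from Mcpt8, Il3ra and Cd200r3.

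Cd200r3, an activating receptor of basophils and mast cells, ran against Mcpt8. It stood at 5.86, 18.4 and 8.31 CPM for Chat negative 1, 2 and 3, against 3.66, 14.9 and 4.87 CPM for Chat positive 1, 2 and 3, so it was highest in the number 2 libraries, where Mcpt8 was lowest. Il3ra went the other way, with 19.7, 13.2 and 19.7 CPM for Chat negative 1, 2 and 3 and 21.5, 14.3 and 15.7 CPM for Chat positive 1, 2 and 3, and was lowest in the number 2 library of each gate, as Mcpt8 was. Among markers of other cells, those of eosinophils summed to 7.62 to 11.7 CPM over all libraries, mostly Ccr3, with Ear1, Ear2 and Ear6 at 0. The macrophage list summed to 8.05 to 23.7 CPM, mostly Cd68. Adgre1 (F4/80) had 36 to 167 counts, Csf1r and Lyz2 no more than 5 and Marco 0. The neutrophil list summed to 2.40 to 14.8 CPM, mostly Ly6g. The B cell list summed to 66.6 to 85.3 CPM, nearly all Cd79b, and the T cell list to 18.9 to 44.9 CPM, mostly Cd3g. Cd3e had 94 to 210 counts, Cd3d 36 to 87, Cd4 0 to 50 and Cd8b1 0. The dendritic cell list summed to 123 to 151 CPM and was carried by Xcr1 (136 CPM), with Clec9a and Siglech at 0. The epithelial list summed to 35.1 to 88.0 CPM. Epcam averaged 57.05 CPM on it, the keratin gene Krt18 had 33 to 127 counts, the cadherin gene Cdh1 19 to 175, Krt8 at most 2 and Sftpc 0. The NK cell and ILC1 list summed to 0.943 to 4.49 CPM (mostly Klrk1) and the ILC3 list to 1.02 to 5.99 (mostly Il22). Red cell genes summed to at most 0.179 CPM, with Hba-a1 and Hba-a2 at 0. None of these lists had a member called without the block, and their part in the members' values was not tested.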

How the data were processed

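RNA-seq libraries were made from sorted cells with an ultra-low-input SMARTer kit, as the labels' protocols state. CASAVA 1.8.2, STAR 2.3.0 and mm10 are named per the submitters' processing notes. The sources used here do not give the counting program, its annotation or its strand setting. The authors deposited raw read counts per Entrez gene, with no normalisation, since the values are whole and the columns differ in their sums. Symbols came from RefSeq for GRCm38.p6, the assembly of mm10 (25275 of 27179 IDs), and transcripts, lengths and exons from GENCODE vM21.

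The members and lists were chosen with earlier results of these data known. CPM are counts scaled to the same total in every library. Genes kept by filterByExpr were scaled with TMM and tested with edgeR 4.0.16 (R 4.3.3; quasi-likelihood F-test, robust dispersions, two-sided, Benjamini-Hochberg over all genes, threshold 5%). SEs are those the F statistic implies. The fit was tested on simulated counts that held no effect of the replicate number, so that test does not cover the split by number seen here. Named genes were the members, up to 4 genes per list by mean CPM, genes of a list at 0 counts or past the threshold, and the 2 most alike genes per member. Genes named outside this rule (Cd247, Fcgr1, Kitl, Mcpt2, Mitf, Lmo2, Cebpa, Spi1, Erg, Gfi1b, Tal1, Lyl1, Rpl13, Rpl4 and those of the closing section) were chosen after their values were seen.

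Libraries of a gate differed by more than sampling noise (a chi-square of 31.5 or more for each degree of freedom). Same-numbered libraries deviated together from their gate's mean (across genes, r was 0.29 for number 1, 0.67 for number 2 and 0.43 for number 3), so the numbers were treated as pairs in the blocked alternative. The pairing comes from these correlations, not from a label, and r between Chat negative 1 and Chat positive 3 was 0.30.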

Additional observations from a re-analysis of the deposited data

How the results depend on the processing

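With 1 gene called between the gates in the unblocked fit, the count was 44 with the replicate block, 4 with DESeq2 1.42.0 and 2 without both libraries of number 2, the last an alternative chosen after the data were seen. Leaving out 1 library at a time gave 0 to 1 calls, with 0 without Chat negative 1, Chat negative 3, Chat positive 1 or Chat positive 3. No alternative called a member, and the block changed no member's call. Fcer1g kept its direction in all 15 alternatives, with log2 differences of -0.81 to -0.18, the range of the fits without 1 library, of which -0.18 was without Chat negative 1. Mcpt8 kept it in 13 of 15, from -0.77 to 0.26 without 1 library, and turned to 0.26 without Chat negative 3 and 0.15 without Chat positive 2. Kit kept it in 14 of 15, from -0.12 to 0.38 without 1 library, and turned to -0.12 without Chat positive 2. Hdc, from -0.62 to 0.56 without 1 library, turned in 4 of the 14 alternatives that tested it, to 0.12 with the replicate block, 0.15 with limma-voom (limma 3.58.1), 0.56 without Chat negative 3 and 0.06 without Chat positive 2. The cause was not tested. Adjusted p over the alternatives ran from 0.124 to 1.00 for Mcpt8, 0.169 to 1.00 for Fcer1g, 0.296 to 1.00 for Kit and 0.758 to 1.00 for Hdc. The filter removed Gata2, Fcer1a, Cpa3 and Ms4a2, so no difference between the gates was tested for them.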

Other observations

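A few genes, chosen after their values were seen, were low in the number 2 libraries, as Mcpt8 was. Cd63, a granule membrane protein that appears on the surface of degranulating basophils and mast cells, stood at 15.1, 3.74 and 23.1 CPM for Chat negative 1, 2 and 3, against 16.6, 3.40 and 27.9 CPM for Chat positive 1, 2 and 3. There were 527 to 885 Mcpt8 reads per 100 Cd63 reads, although Mcpt8 itself spanned 25.5 to 199 CPM. Ly6g, a surface protein known from neutrophils, stood at 5.67, 0.859 and 12.4 CPM and at 8.83, 1.27 and 12.6 CPM in the same order, while the neutrophil genes S100a8 and S100a9 had at most 20 counts. The granzyme gene Gzmc, a neighbour of Mcpt8 within the protease cluster, stood at 18.2, 2.85 and 10.5 CPM and at 10.9, 2.40 and 7.77 CPM.

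Others went the opposite way. The cytokine receptor chain Csf2rb stood at 11.1, 31.7 and 15.1 CPM and at 9.37, 36.1 and 16.7 CPM, and Ptgdr2, the prostaglandin D2 receptor CRTH2 found on basophils and type 2 lymphocytes, had 15, 115 and 3 counts and 5, 98 and 1. The tyrosine kinase Syk, which binds the gamma chain's signalling motif, stood at 18.8, 27.7 and 15.8 CPM and at 12.8, 34.0 and 13.3 CPM. For each gene the number 2 libraries of both gates lay at one end, and none of these relations was tested.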
